A study of Homo sapiens with 3 samples.

Results

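JAK1 and 8 further genes of the interferon and cytokine signalling route through JAK kinases and STAT factors were followed as guide RNAs in a pooled knockout screen. The genes were JAK1, JAK2, TYK2, STAT2, STAT3, IRF9, IFNGR1, IRF1 and SOCS1. A guide belonged to the set when the deposited tables named 1 of these genes as its target, which gave 27 guides, 3 per gene, out of 62916 guides in all. The genes were chosen by these same abundances, with the values of all 3 libraries known and chiefly for the excess of JAK1 guides in RTX, so the values below describe the libraries. A count test given near the end is an alternative call on the same values and supports nothing.

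The screen was run in NUGC3, a long-established human line of gastric cancer, with a GeCKO library. This is a pool of guides, most of them meant to lead the nuclease Cas9 to 1 gene. The libraries were cells after 14 days in 10 nM RTX, cells kept with DMSO (the solvent) to day 14, and cells at day 0. The day 0 sample is titled DMSO too, and there was 1 library for each. RTX is not spelled out by the submitters, whose title concerns antifolate drugs. Groups follow the sample titles, since a note on treatment gives 14 days of DMSO for the group titled day 0. All 3 libraries come from the same line with the same guide library, each is a pool of cells, and loss of a target protein was not measured for any guide here. With 1 library per condition, replicate spread cannot be set against any difference.

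JAK kinases sit on the inner side of cytokine receptors and phosphorylate STAT proteins when a cytokine binds. STAT proteins then enter the nucleus and switch on target genes. JAK1 serves the receptors of type I, II and III interferons and those of the IL-6 family, whose main effector is STAT3. TYK2 pairs with JAK1 at the type I interferon receptor and JAK2 pairs with it at the interferon-gamma receptor. In epithelial tumours STAT3 is best known for promoting growth and survival, while interferons acting through STAT factors slow growth and raise antigen presentation. The sequences of the guides are not printed, and guides are called here by their library numbers.

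Reads were recovered from the deposited normalized values. The RTX library held 17344507 reads, the DMSO day 14 library 18805737 and the day 0 library 16547572, with medians of 232, 251 and 230 reads per guide. Every guide of the set was well covered, with 71 to 1407 reads in any library and at least 112 at day 0, so all 27 passed the filter of 10 normalized reads at day 0. Ratios are log2 of the normalized reads of 2 libraries, each with 5 reads added, and the median of all guides is set to 0. Drift without a knockout was read from the non-targeting guides, which match no site in the genome. The central 95% of 991 of these lay from -1.31 to 1.17 for RTX over DMSO, from -0.97 to 1.11 for DMSO over day 0 and from -1.01 to 1.05 for RTX over day 0. As a check of drug selection, guides against SLC19A1, the carrier that takes antifolates into the cell, had the highest gene median both in RTX over DMSO (5.27) and in RTX over day 0 (6.01).

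JAK1 had the highest gene median of the 9 members both in RTX over DMSO and in RTX over day 0. Guide 31200 had 1407 reads in RTX, 637 in DMSO and 544 at day 0. Guide 31201 had 814 reads in RTX, 447 in DMSO and 315 at day 0. Guide 31202 had 443 reads in RTX, 229 in DMSO and 171 at day 0. All 3 guides had most reads in RTX and fewest at day 0, although they entered the screen at very different abundance, at the percentiles 93.1, 68.5 and 34.5 of all guides at day 0. Summed, JAK1 guides made up 153.6 RPM (reads per 1000000 reads of the library) in RTX (95% exact Clopper-Pearson interval 147.8 to 159.5), 69.8 in DMSO (66.1 to 73.7) and 62.2 at day 0 (58.5 to 66.2). These intervals, and those of guide ratios below, cover counting error only, and PCR reads without molecular identifiers are not independent molecules.

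In RTX over DMSO the log2 ratios of guides 31200, 31201 and 31202 were 1.28 (counting interval 1.15 to 1.42), 0.996 (0.84 to 1.17) and 1.07 (0.86 to 1.33). The gene median of 1.07, a 2.11-fold difference, ranked 446 from the top of 20150 genes with at least 2 guides. Guide 31200 was the 1 guide of the set above the range of the non-targeting guides, where 5.65% of targeting guides lay above it and 2.51% below. In DMSO over day 0 the same guides stood at 0.07, 0.34 and 0.26, all inside that range, with a gene median at percentile 79.0 of all genes. The ratio of guide 31200 had a counting interval of -0.10 to 0.24 and lay below the non-targeting median of 0.19, so its sign depends on the scaling. The gene median of 0.26 became 0.07 when non-targeting guides were set to 0.

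The JAK1 ratios of RTX over day 0 were 1.36 (counting interval 1.22 to 1.51), 1.35 (1.17 to 1.56) and 1.34 (1.11 to 1.63). All lay above the range of the non-targeting guides, and the gene median of 1.35, a 2.55-fold difference, ranked 29 from the top. The guides lay within 0.0147 log2 units of each other, closer than the width of any of their own counting intervals, which were 0.29 to 0.52 wide. Of 18094 genes with 3 guides, 2 had a narrower range, and the median range was 0.80. In RTX over DMSO the JAK1 guides spanned 0.28, and 1083 genes (5.99%) were narrower. In the authors' deposited tables the FDR of the 3 guides was 4.47e-20, 1.51e-07 and 1.3e-05 for RTX over DMSO and 3.91e-27, 4.38e-18 and 1.24e-11 for RTX over day 0. Those tables, made from single libraries, also call 13.6% and 15% of the 1000 non-targeting guides at an FDR under 0.05.

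TYK2, the partner of JAK1 at the type I interferon receptor, had a smaller and even excess in RTX over day 0. Its guides 59743, 59744 and 59745 had 155, 531 and 788 reads in RTX, 200, 302 and 635 in DMSO and 112, 358 and 539 at day 0. Every guide was thus higher in RTX than at day 0, while guide 59743 was highest in DMSO. The ratios of RTX over day 0 were 0.45, 0.56 and 0.54, inside the non-targeting range, with a median of 0.54 at percentile 94.4 of genes. In RTX over DMSO the ratios were -0.22, 0.94 and 0.45, and in DMSO over day 0 they were 0.66, -0.40 and 0.08, so the guides disagreed in both comparisons that use the DMSO library.

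JAK2, the kinase paired with JAK1 at the interferon-gamma receptor, showed no shared direction. Guides 31203, 31204 and 31205 had 607, 298 and 121 reads in RTX, 724, 206 and 213 in DMSO and 662, 234 and 135 at day 0. Guide 31204 was highest in RTX and guide 31205 in DMSO, and guide 31203 was similar in all 3 libraries. The median ratio was -0.11 in RTX over DMSO, -0.03 in DMSO over day 0 and -0.13 in RTX over day 0, with guide ranges of -0.66 to 0.66, -0.33 to 0.49 and -0.16 to 0.34. Among the JAK kinases, the summed share of guides in RTX and at day 0 was thus 153.6 and 62.2 RPM for JAK1, 85.0 and 61.0 for TYK2 and 59.2 and 62.3 for JAK2, from nearly the same share at day 0.

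STAT3, the factor activated below the IL-6 family receptors, came next after JAK1 in RTX over day 0. Guide 54674 had 307 reads in RTX, 302 in DMSO and 142 at day 0. Guide 54675 had 480 reads in RTX, 272 in DMSO and 182 at day 0. Guide 54676 had 291 reads in RTX, 247 in DMSO and 272 at day 0. The first of these guides was higher than at day 0 in both other libraries, the second was highest in RTX, and the last was lowest in DMSO. The ratios of RTX over day 0 were 1.08 (counting interval 0.81 to 1.40), 1.37 (1.14 to 1.65) and 0.09 (-0.15 to 0.34). Their median of 1.08 ranked 93 from the top of all genes, but the guides spanned 1.28, and the gene was no longer past the limit of 1 with the mean of its guides (0.85) or under scaling to non-targeting guides (0.97). In DMSO over day 0 the guides stood at 0.91, 0.41 and -0.29, with a median of 0.41 at percentile 90.5. In RTX over DMSO they stood at 0.16, 0.95 and 0.37, with a median of 0.37 at percentile 80.8.

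STAT2 and IRF9 are parts of the factor ISGF3, which carries the type I interferon signal. For STAT2, guides 54671, 54672 and 54673 had 365, 662 and 287 reads in RTX, 697, 392 and 218 in DMSO and 358, 398 and 329 at day 0. Guide 54671 was highest in DMSO, guide 54672 in RTX and guide 54673 at day 0. The median ratio of STAT2 was 0.53 in RTX over DMSO, -0.18 in DMSO over day 0 and 0.02 in RTX over day 0, and the value of 0.53 became 0.21 as a mean of the guides. For IRF9, guides 30891, 30892 and 30893 had 596, 104 and 452 reads in RTX, 1009, 71 and 401 in DMSO and 583, 113 and 375 at day 0. As with STAT2, guides of this gene disagreed, with 30891 highest in DMSO and 30892 lowest there. The IRF9 median was 0.31 in RTX over DMSO, -0.06 in DMSO over day 0 and 0.02 in RTX over day 0, where its guides stayed between -0.12 and 0.26. The signs of the STAT2 and IRF9 medians in RTX over day 0 turned under scaling to equal totals and under scaling to non-targeting guides.

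IFNGR1, the ligand-binding chain of the interferon-gamma receptor, held the lowest guide of the set in RTX over day 0. Its guides 29997, 29998 and 29999 had 384, 82 and 314 reads in RTX, 297, 143 and 214 in DMSO and 342, 173 and 199 at day 0. Guide 29998 was lowest in RTX, where the others were highest. Their ratios of RTX over day 0 were 0.16, -1.04 and 0.64, with a median of 0.16 that became -0.08 as a mean. Ratios of RTX over DMSO were 0.50, -0.63 and 0.68, with a median of 0.50 at percentile 87.1 of genes, which became 0.18 as a mean. All 3 ratios of DMSO over day 0 were below 0, with a median of -0.36 and a range of -0.42 to -0.05. The ratio of guide 29999 had a counting interval of -0.34 to 0.23, and its unscaled reads were higher in DMSO.

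IRF1, a transcription factor that interferon-gamma induces and that restrains growth, had small gene medians in all comparisons. Guides 30858, 30859 and 30860 had 1143, 115 and 384 reads in RTX, 918, 119 and 409 in DMSO and 869, 169 and 409 at day 0. Guide 30858 was highest in RTX and guide 30859 at day 0. All 3 guides were above 0 in RTX over DMSO, by 0.45, 0.09 and 0.05, and below 0 in DMSO over day 0, by -0.08, -0.64 and -0.16. The median in RTX over day 0 was -0.10, with guides from -0.54 to 0.39.

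SOCS1, the inhibitor that blocks JAK kinases and is itself induced by interferon, was the only member whose guides were all lower in RTX than at day 0. Guides 53410, 53411 and 53412 had 113, 90 and 141 reads in RTX, 259, 85 and 202 in DMSO and 167, 127 and 212 at day 0. Thus guide 53410 was highest in DMSO and guide 53411 lowest there. In RTX over day 0 the ratios were -0.55 (counting interval -0.93 to -0.22), -0.48 (-0.91 to -0.10) and -0.58 (-0.91 to -0.28), a range of 0.10 around a median of -0.55 at percentile 7.41 of genes. All of these lay inside the range of the non-targeting guides. In RTX over DMSO the guides stood at -1.03, 0.21 and -0.37, and in DMSO over day 0 at 0.46, -0.70 and -0.22. Summed, SOCS1 guides made up 19.8 RPM in RTX (95% exact interval 17.8 to 22.0), 29.0 in DMSO (26.7 to 31.6) and 30.6 at day 0 (28.0 to 33.4).

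Over the set in RTX over DMSO, 2 of 27 guides were at or above 1, both of JAK1, and 1 guide of SOCS1 was at or below -1, where 7.95% and 5.42% of 61619 targeting guides were so. A gene was called when its median passed 1 in size and all its guides shared a sign. JAK1 was the 1 of 9 genes called, as higher, against 1.8% of all genes called higher. The median over the 9 genes was 0.37, and 0.34 without JAK1, beside 0.00 over all genes, and 7 of 9 medians were above 0. Of those 7 genes, TYK2, STAT2, IRF9 and IFNGR1 each had 1 guide below 0. Guides lay all above 0 in 3 of 9 genes (JAK1, STAT3 and IRF1), against 14.1% of all genes with 3 guides. The counting intervals of guides 54674 of STAT3 (0.16) and 30859 and 30860 of IRF1 (0.09 and 0.05) included 0.

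In DMSO over day 0, 0 of 27 guides passed 1 in either direction, against 9.89% of all targeting guides, and none lay outside the range of the non-targeting guides, where 1.52% of targeting guides lay above it and 8.04% below. No member was called, where 2.36% of all genes were. The median over the genes was -0.06, with 3 of 9 above 0 (JAK1, TYK2 and STAT3), of which TYK2 had one of -0.11 under scaling to non-targeting guides. Guides lay all above 0 in JAK1 (guide 31200 not under scaling to non-targeting guides) and all below 0 in IFNGR1 and IRF1, so 3 of 9 genes had guides of 1 sign, against 29% of genes with 3 guides. In each of these 3 genes at least 1 guide had a counting interval that included 0.

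In RTX over day 0, 5 of 27 guides were at or above 1, namely all 3 of JAK1 and 2 of STAT3, where 3.19% of targeting guides were so. The guide of IFNGR1 was the 1 guide at or below -1, where 5.35% were. The same 6 guides were those outside the range of the non-targeting guides, where 2.72% of targeting guides lay above it and 5.16% below. JAK1 and STAT3 were the 2 of 9 genes called, both higher, against 0.486% of all genes called higher. JAK1, TYK2 and STAT3 had all guides above 0 (guide 54676 of STAT3, at 0.09, not under scaling to non-targeting guides, whose median was 0.11), a share of genes that was 14.2% over the tables, and SOCS1 had all below 0, which 14% of genes had. The median over the 9 genes was 0.02, beside 0.00 over all genes. Since RTX enrichment of JAK1 was a reason for choosing the set, its part in these counts is no finding. RTX over DMSO and RTX over day 0 share the RTX library. RTX over DMSO and DMSO over day 0 share the DMSO library, and both comparisons with day 0 share that library. Agreement between comparisons is therefore not independent.

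In the authors' deposited tables, 8 of 27 guides had an FDR under 0.05 and were higher, and 2 were lower, in RTX over DMSO, where 14% and 4.27% of targeting guides were. There 3 guides were higher and 0 lower in DMSO over day 0 (9.65% and 5.92% of targeting guides). In RTX over day 0 they gave 9 higher and 0 lower (11% and 4.08%). The guides called in DMSO over day 0, all higher, were 54674 of STAT3, 54671 of STAT2 and 30891 of IRF9, and 54671 and 30891 were the 2 called lower in RTX over DMSO. JAK1 was the 1 member with all 3 guides called in a comparison. This held in both comparisons that involve RTX, which share the RTX library. A count test on the recovered reads, edgeR's exact test with a dispersion taken from non-targeting guides, called 0 of 27 guides in each comparison after Benjamini-Hochberg adjustment. It called 1.32%, 2.21% and 0.857% of targeting guides in RTX over DMSO, DMSO over day 0 and RTX over day 0. At an unadjusted p under 0.05 it gave 1, 0 and 5 guides of the set, where it gave 7.86%, 8.48% and 6.76% of targeting guides. That test compares the libraries, not the conditions, on guides chosen by these values.

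The wider pathway was read from 8 lists of 123 genes, of which 122 were in the tables and 120 had at least 2 guides past the filter. None of the 120 was called in any comparison, against 2.26%, 2.36% and 1.39% of all genes called in either direction in RTX over DMSO, DMSO over day 0 and RTX over day 0. In RTX over day 0 the median over these genes was 0.02, beside 0.00 over all genes.

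Among the close relatives of the members, no kinase or factor was called. JAK3, the kinase of lymphoid cytokine receptors, stood at 0.02 (RTX over DMSO) and -0.17 (RTX over day 0). STAT4, which acts below IL-12, stood at 0.50 and 0.01 in the same comparisons. STAT5A stood at -0.09 and -0.20 and its paralog STAT5B at -0.51 and -0.18, while STAT6, the factor of IL-4, stood at 0.18 and 0.00. STAT5B was the 1 relative with all guides below 0 in RTX over DMSO, from -0.86 to -0.01.

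The other interferon receptor chains stood higher in RTX over day 0, with a list median of 0.70 over 5 genes and 4 of 5 above 0. Of these genes 4 lie on chromosome 21 (RefSeq, GRCh38.p14), with a median over its 221 genes of 0.69 in RTX over day 0, 0.73 in RTX over DMSO and 0.03 in DMSO over day 0. The part of the chromosome in the receptor values was not tested. In RTX over day 0 IFNAR1, a chain of the type I receptor, had a median of 0.73 with guides from -0.57 to 1.22. Its partner IFNAR2 stood at -0.05 there. IFNGR2, the second chain of the interferon-gamma receptor, had guides of 0.55, 0.71 and 0.84, with 206, 401 and 761 reads in RTX, 207, 371 and 475 in DMSO and 138, 242 and 422 at day 0. It was the 1 receptor chain of the list with all guides above 0. IL10RB, shared by IL-10 and type III interferon, stood at 0.70 with guides from -0.47 to 1.21. IFNLR1, the chain specific to type III interferon and the 1 gene of this list outside chromosome 21, stood at 0.63 with guides from -0.08 to 0.81. All 9 members lie on other chromosomes, JAK1 on chromosome 1, with a median over its 1959 genes of 0.07 in RTX over day 0.

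The genes nearest to JAK1 by their medians in DMSO over day 0 and RTX over day 0 were AGPAT3, ABO, RAB11A, MMS19 and JAG1. They came out of 18093 other genes with 3 guides, at Euclidean distances of 0.04 to 0.08 log2 units over these medians. Their medians in RTX over day 0 were 1.35, 1.38, 1.40, 1.29 and 1.32. Medians in RTX over DMSO did not enter the distance and were 1.05, 0.33, 1.35, 1.01 and 1.03, beside 1.07 for JAK1. Guide ranges of these genes in RTX over day 0 were 0.49, 2.43, 0.86, 1.67 and 0.25, beside 0.0147 for JAK1. Since only 2 of 18094 genes had a narrower range than JAK1, this contrast says nothing particular about these genes. AGPAT3 lies on chromosome 21.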

How the data were processed

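Genomic DNA of 3 NUGC3 libraries was amplified and sequenced, per the labels' protocols. The authors deposited 1 guide table per pair of libraries, 3 in all. MAGeCK 0.5.7 and build hg19 are named per the submitters' processing notes, and the step from reads to guides is not given there. The deposited values are a signal of guide abundance, reads divided by 1 size factor per library of a pair. Dividing by the value of 1 read made at least 99.9968% of values whole within 0.1. The authors' FDR (q-values) per guide were deposited too and serve as an alternative call.

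From these values each guide's log2 ratio was taken (pseudocount 5, at least 10 normalized reads at day 0, 62610 guides, median at 0), and a gene's median over at least 2 guides. Left out were 23 date-like names with 72 guides. The fold limit was 1 log2 unit. Counting intervals are exact Clopper-Pearson intervals of the read ratio. The count test was edgeR 4.0.16 (R 4.3.3, TMM normalization) with 1 dispersion from the non-targeting guides. It was also run on data simulated with that same dispersion, which cannot check the dispersion itself. Tables were handled in Python 3.11.15.

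The members, the lists and the rules were chosen with earlier results of these data known. Named genes were the 9 members, all receptor chains and JAK or STAT relatives of the lists, any listed gene called, the 5 genes nearest to JAK1 and the carrier SLC19A1. A gene of the lists that the rule names is not reported here. FPGS, also named by the rule, had medians of 3.46 in RTX over DMSO and 2.94 in RTX over day 0. Tried as alternatives were a pseudocount of 1 or 20, dropping the filter or raising it to 50 reads, other scalings, the mean over guides and other call rules.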

Additional observations from a re-analysis of the deposited data

How the results depend on the processing

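The JAK1 median stayed from 1.03 to 1.18 in RTX over DMSO, from 0.07 to 0.26 in DMSO over day 0 and from 1.24 to 1.36 in RTX over day 0 under every pseudocount, filter, scaling and summary tried. Of 69 alternative values of the JAK1 medians and the counts over the set, 61 stayed close and 8 moved. For counts this rule was loose. In RTX over DMSO, 4 and 2 guides past 1 under pseudocounts of 1 and 20 were held close to 3. In RTX over day 0, 9 guides by the authors' FDR were held close to 6. Against 3 guides past 1 in RTX over DMSO, scaling to the non-targeting guides gave 5, the range of those guides 1, the authors' FDR 10 and the count test 0. Against 0 guides in DMSO over day 0 the authors' FDR gave 3, and against 6 in RTX over day 0 the count test gave 0. Against 2 genes called in RTX over day 0, scaling to the non-targeting guides and the mean over guides each gave 1, which was JAK1. STAT3 then stood at 0.97 and 0.85, under the limit of 1. What moved the other counts was not tested. Scaling to the non-targeting guides moved the median of all genes by about 0.10, -0.19 and -0.11 in RTX over DMSO, DMSO over day 0 and RTX over day 0. Over all genes it changed the called counts from 363 higher and 93 lower to 539 and 58 in RTX over DMSO, from 12 and 464 to 2 and 813 in DMSO over day 0, and from 98 and 182 to 60 and 283 in RTX over day 0. Pseudocount 20 gave 263 higher and 55 lower, 6 and 347, and 72 and 111 in the same order. Of 168 alternative medians of the other members, 8 turned sign, all between -0.11 and 0.04, and 5 moved beyond counting error. No paired analysis was possible because each condition was 1 library, and for the same reason no library could be left out.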

Other observations

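In RTX over day 0 the 18 negative regulators had a list median of -0.04, with 8 above 0, and the 14 genes of the gp130 family had one of 0.21, with 10 above 0. IL6ST, which encodes gp130 itself, stood at 0.53. The other SOCS genes had medians of -0.06 for SOCS2, -0.07 for SOCS3, 0.14 for SOCS4, 0.12 for SOCS5, -0.36 for SOCS6 and -0.08 for SOCS7. PTPN11, a phosphatase needed for growth factor signalling through RAS, had the lowest median of all listed genes, at -0.93, and also the lowest in DMSO over day 0, at -0.99. IL6ST, the SOCS genes and PTPN11 were singled out after their values were seen.

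The 39 interferon-stimulated genes had a list median of 0.04 in RTX over day 0, with 21 above 0, and the 19 interferon ligand genes one of 0.00, with 10 above 0. The interferon-alpha genes are near-identical copies, so a guide may cut several of them and its value is uncertain for any 1 gene. The 12 other receptors that use JAK1 had a median of -0.02, and the 7 other interferon regulatory factors one of 0.17, from -0.21 to 0.87.

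In RTX over day 0, 95 genes with 3 guides were called higher, JAK1 among them, and the median range of guides in these genes was 0.92 log2 units. The JAK1 guides spanned 0.0147, and none of the others was narrower. The counting intervals of the JAK1 guides were 0.29 to 0.52 wide, so a span this small is finer than the counts resolve. In RTX over DMSO, 8 of 326 such genes had a narrower guide range than JAK1.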
